A study of Mus musculus with 6 samples.

Results

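The solute carriers described here are the membrane proteins that move amino acids, hexoses and monocarboxylates such as lactate across the plasma membrane and the membranes of lysosomes. Members were all rows of the deposited gene table whose symbol belongs to the families Slc1a, Slc2a, Slc3a, Slc6a, Slc7a, Slc16a, Slc36a, Slc38a or Slc43a, which gave 89 of 24972 genes. The choice used symbols and no measured value, but it was made, like that of the lists below, with earlier results of these data known. Of these 89 genes, 36 reached 10 normalized counts in 3 or more libraries and were tested. All 36 reached 10 in each of the 6 libraries, so that none entered through 1 genotype. Expression was measured by RNA sequencing in untreated bone marrow-derived macrophages of mice with a knockout of *Lcn10* (Lcn10-KO, 3 libraries) and of wild-type mice (WT, 3 libraries). *Lcn10* encodes a secreted lipocalin. Cells of both genotypes were differentiated in medium with 20% L929 cell supernatant, a source of macrophage colony-stimulating factor, and 10% serum. The labels give neither the design of the *Lcn10* allele nor the strain or age of the mice. Nor do they tie a replicate to a mouse of its own, so a p-value here reflects library-to-library spread that may be technical.

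Macrophages take up glucose through facilitative carriers of the Slc2a family, export lactate together with protons through Slc16a carriers, and load amino acids through secondary active and exchange carriers. Large neutral and cationic amino acids pass through exchangers built of a light chain of the Slc7a family and the heavy chain Slc3a2, also known as CD98. Proton-coupled Slc36a carriers and several Slc38a carriers sit on lysosomes, where they release amino acids and report their supply to the kinase complex mTORC1. The transcription factor ATF4, which is translated when amino acids are short, activates several of these genes.

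Values are estimated read counts that the authors scaled between libraries, called normalized counts here. Library totals lay between 20476668 and 20636260 after scaling. The value of a single read put the depth at about 18000000 to 24900000 reads per library. *Lcn10* itself was listed at 0 in all 6 libraries, so the targeted gene cannot check the genotype labels. Of 10 macrophage markers 10 passed the filter, with sums of 310976 to 322463 in Lcn10-KO and 291819.6 to 301328 in WT, and 4 of them were called (*Adgre1* and *Mertk* higher, *Csf1r* and *Cd14* lower). Fibroblast and stromal markers (6 of 8 past the filter) summed to 3788 to 4274 in Lcn10-KO and 2882 to 4476 in WT, and endothelial markers (7 of 8) to 1512 to 2086 in Lcn10-KO and 1400.0 to 1600.3 in WT. Of the endothelial markers, *Egfl7* (log2 fold change 1.15 ± 0.27 SE, limma adjusted p = 0.0203) and *Vwf* (log2 fold change 0.19 ± 0.05 SE, limma adjusted p = 0.0424) were called higher, and neither overlapped between the genotypes. *Cdh5*, *Emcn*, *Pecam1* and *Tie1* (log2 fold changes 0.66 to 1.04) and *Kdr* (−0.17) overlapped and were not called. Over all tested genes 9.84% were called and 32.4% did not overlap. Neutrophil markers (5 of 9 past the filter) summed to 402 to 441 in Lcn10-KO and 336 to 463 in WT, with *Ly6g* at 0. Osteoclast markers (4 of 6) summed to 536 to 657 in Lcn10-KO and 473 to 670.2 in WT, with *Calcr* at 0, and mast cell and basophil markers (2 of 5) to 56.7 to 64.5 in Lcn10-KO and 34.2 to 61.3 in WT, with *Fcer1a* at 0. The 3 lists of T and NK, B and dendritic cell markers summed to at most 40.1 in any library, with *Cd8a* and *Ncr1* at 0. Sums of the macrophage list and of the B cell list did not overlap between the genotypes. The part of these markers, the endothelial ones included, in the differences described next was not tested. WT replicate 1 had the highest value of all 6 libraries in 16 of the 36 tested carriers, against 4 in WT replicate 2 and 2 in WT replicate 3. For Lcn10-KO replicates 1, 2 and 3 the count was 0, 5 and 9. The same count was not made over all genes. Fold changes are therefore also given without it.

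Of the 36 tested carriers, 8 were lower and 2 were higher in Lcn10-KO than in WT, and 26 did not pass the threshold. The test was limma on log2(value + 1) with Benjamini-Hochberg adjusted p under 0.05 over all 12091 genes tested. The 8 lower genes were *Slc7a8*, *Slc7a6*, *Slc3a2*, *Slc1a5*, *Slc38a2*, *Slc6a9*, *Slc16a1* and *Slc16a10*, and the 2 higher were *Slc2a9* and *Slc38a6*. The 10 called genes are 27.8% of the tested carriers, beside 9.84% of all tested genes in either direction. Lower calls made up 5.14% and higher calls 4.70% of all tested genes. The median log2 fold change of the 36 carriers was −0.06, beside 0.00 over all tested genes, and the median absolute change was 0.19 beside 0.10. Without WT replicate 1, and likewise without Lcn10-KO replicate 1, the median of the 36 was −0.04. The genotypes did not overlap in 20 of the 36 (55.6%, beside 32.4% of all tested genes), and in 13 of these 20 Lcn10-KO lay below WT. Among 39 tested mitochondrial carriers of the Slc25a family limma called 0 (5 at an unadjusted p under 0.05), and among all 160 tested Slc genes outside the 9 families it called 16 (10.0%). An unadjusted p under 0.05 was common, at 3180 of all 12091 tested genes and 18 of the 36 carriers. In bulk samples fewer cells of a type and less RNA per cell cannot be told apart.

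Without WT replicate 1, limma again called 10 of the 36, beside 9.62% of all genes, and 8 of these were among the 10 of all libraries. *Slc6a9* and *Slc38a6* lost their calls there and *Slc7a1* and *Slc2a1* gained one. Without Lcn10-KO replicate 2 or 3, limma called 0 of the 36. There 14 and 15 had an unadjusted p under 0.05, and the smallest adjusted p was 0.0527 and 0.0533. With all libraries 18 of the 36 and 3180 of 12091 genes had an unadjusted p under 0.05, but the all-gene count was not made for these omissions. Calls over all genes numbered 207 and 175 without Lcn10-KO replicate 2 and 3, and 1190 with all libraries. In limma without the mean-variance trend 0 of the 36 and 14 of all genes passed, with 16 of the 36 at an unadjusted p under 0.05. How many of all genes reached that level without the trend was not counted.

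**Figure D1:**
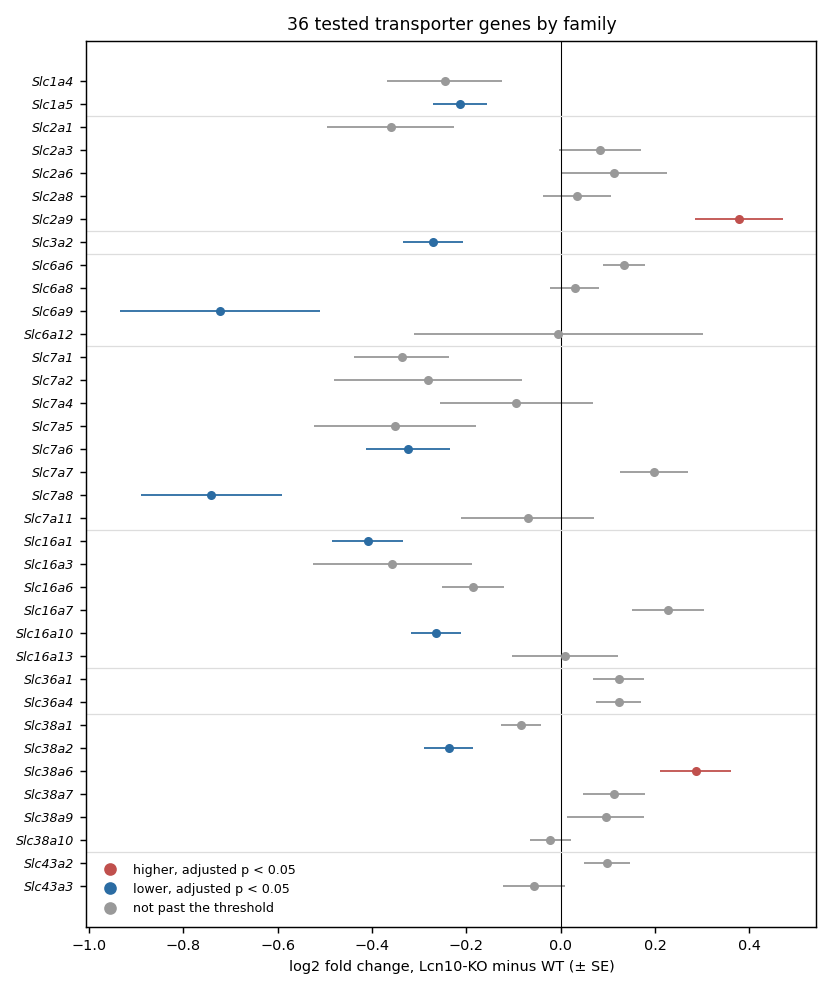
Log2 fold changes of the 36 tested carriers (horizontal axis, Lcn10-KO minus WT, with standard error), ordered by family; blue points were lower, red points higher at adjusted p under 0.05, and grey points did not pass. The 8 blue points lie between −0.74 (*Slc7a8*) and −0.21 (*Slc1a5*), and the 2 red points at 0.29 (*Slc38a6*) and 0.38 (*Slc2a9*).

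In the list of heavy chains and the light chains that pair with them, limma called 3 of 6 tested genes, all lower, with a median log2 fold change of −0.30 (−0.17 without WT replicate 1). Over all tested genes 5.14% were called lower. Limma called 0 of the 6 without Lcn10-KO replicate 1, 2 or 3, and 3, 2 and 1 without WT replicate 1, 2 and 3. The change of *Slc7a8* was the largest of all tested carriers. *Slc7a8* encodes LAT2, a light chain that exchanges neutral amino acids of small and large size across the plasma membrane (ENSMUSG00000022180.7, chr14:54722209-54781946, minus strand, GRCm38). *Slc7a8* had 3463, 3210.0 and 3249.9 normalized counts in Lcn10-KO replicates 1 to 3, against 6938, 4946 and 4909.7 in WT replicates 1 to 3. All 3 Lcn10-KO libraries lay below all WT libraries, and WT replicate 1 lay far above the other WT libraries. The mean in Lcn10-KO was 59.1% of that in WT (log2 fold change −0.74 ± 0.15 SE, limma adjusted p = 0.0435). The log2 fold change was −0.58 without WT replicate 1 (adjusted p = 8.9e-08). The call was lost without Lcn10-KO replicate 1, 2 or 3 (adjusted p = 0.101, 0.143 and 0.121) or WT replicate 2 or 3 (adjusted p = 0.0521 and 0.0525). It was also lost when every gene above 0 was kept (adjusted p = 0.0708). The promoter of the gene is shown because it is the member with the largest change. It spans 250 bases before to 50 after the start in RefSeq (GRCm38.p6, chr14:54781837-54782136, minus strand) and held none of the 3 motifs searched, so no base is in capitals.
Slc7a8: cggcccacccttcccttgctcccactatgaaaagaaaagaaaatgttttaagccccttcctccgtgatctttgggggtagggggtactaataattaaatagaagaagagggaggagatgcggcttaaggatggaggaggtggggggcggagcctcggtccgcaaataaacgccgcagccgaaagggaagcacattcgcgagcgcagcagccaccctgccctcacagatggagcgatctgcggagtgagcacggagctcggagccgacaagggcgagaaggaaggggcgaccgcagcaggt

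*Slc3a2*, the heavy chain that carries LAT2 and other light chains to the cell surface, was lower as well. *Slc3a2* had 5019, 4978 and 4920.5 normalized counts in Lcn10-KO replicates 1 to 3, against 6731, 5565 and 5759 in WT replicates 1 to 3. The groups did not overlap, the Lcn10-KO libraries lay close together, and WT replicate 1 was again the highest (log2 fold change −0.27 ± 0.06 SE, limma adjusted p = 0.0253). Without that library the log2 fold change was −0.19 (adjusted p = 0.00487). Its call was lost without Lcn10-KO replicate 1, 2 or 3 (adjusted p = 0.0739, 0.104 and 0.106). *Slc7a6*, which encodes the light chain y+LAT2 for exchange of cationic against neutral amino acids, had 690.2, 681 and 614 normalized counts in Lcn10-KO replicates 1 to 3, against 962, 761 and 773 in WT replicates 1 to 3. Here too no Lcn10-KO library reached a WT library (log2 fold change −0.32 ± 0.09 SE, limma adjusted p = 0.0463). The log2 fold change of *Slc7a6* was −0.21 without WT replicate 1. It lost its call without Lcn10-KO replicate 1, 2 or 3 (adjusted p = 0.0913, 0.128 and 0.168) or WT replicate 3 (adjusted p = 0.0549).

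The other light chains did not pass the threshold and differed in direction. *Slc7a7* had 441, 457 and 438 normalized counts in Lcn10-KO replicates 1 to 3, against 374, 371 and 421 in WT replicates 1 to 3. *Slc7a7* encodes y+LAT1, the macrophage form of the cationic exchanger, and its groups did not overlap, with Lcn10-KO above WT (log2 fold change 0.20 ± 0.07 SE, limma adjusted p = 0.0999). Its exons share 232 bases with those of *Oxa1l* on the opposite strand, and without a known strand setting reads from that stretch cannot be assigned. *Slc7a5* had 639, 612 and 666 normalized counts in Lcn10-KO replicates 1 to 3, against 1073, 717 and 703 in WT replicates 1 to 3. *Slc7a5* encodes LAT1, the carrier of large neutral amino acids. WT replicate 1 lay far above the other libraries, and the log2 fold change was −0.35 with all libraries and −0.15 without that library (limma adjusted p = 0.266 and 0.148). *Slc7a11* had 121, 155 and 168 normalized counts in Lcn10-KO replicates 1 to 3, against 173, 154 and 136 in WT replicates 1 to 3. *Slc7a11*, the cystine/glutamate exchanger xCT that feeds glutathione synthesis, overlapped between the genotypes (log2 fold change −0.07 ± 0.14 SE, limma adjusted p = 0.802), and its log2 fold change was 0.02 without WT replicate 1 and 0.07 without Lcn10-KO replicate 1.

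Levels of different genes can be set side by side per kilobase of transcript, taken here from the longest coding transcript in GENCODE. The 5 light chains that passed the filter and pair with *Slc3a2* (*Slc7a5*, *Slc7a6*, *Slc7a7*, *Slc7a8* and *Slc7a11*) were summed on this scale, a grouping made after their values were seen. Their sum was 1420.3, 1359 and 1359 in Lcn10-KO replicates 1 to 3, against 2444, 1798 and 1808 in WT replicates 1 to 3, in normalized counts per kilobase, with no overlap between the genotypes. *Slc7a8* made up 58.7% ± 0.939 in Lcn10-KO and 67.8% ± 1.55 in WT (SD, n = 3 each) of this sum. The share of *Slc7a7* was 14.2% ± 0.565 in Lcn10-KO and 8.67% ± 1.78 in WT (SD, n = 3 each). Summed light chains stood to *Slc3a2* in a ratio of 0.780 ± 0.0144 in Lcn10-KO and 0.938 ± 0.0735 in WT (SD, n = 3 each). Each of these 4 measures had p = 0.1 in a two-sided exact permutation test, the smallest that 3 against 3 libraries allow. The 4 measures are not separate results, because *Slc7a8* makes up most of the sum that all of them use. *Slc7a7* itself did not pass the threshold, and its share also rises as the sum falls.

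**Figure D2:**
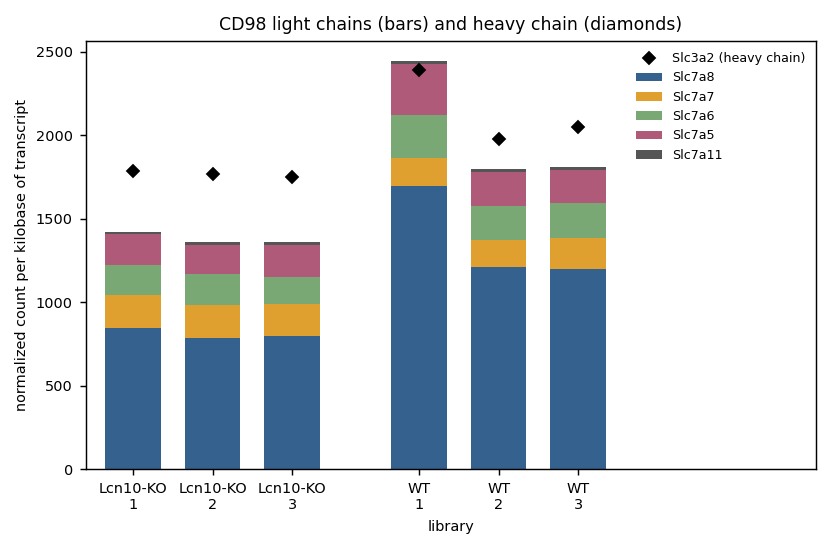
Normalized counts per kilobase of transcript (vertical axis) of the 5 light chains, stacked as bars, and of the heavy chain *Slc3a2* (black diamonds), in each library. The blue segment of *Slc7a8* makes up most of every bar, and the bars of the 3 Lcn10-KO libraries, at 1359 to 1420.3, are all lower than those of the WT libraries, at 1798 to 2444.

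Among the sodium-coupled carriers of small neutral amino acids, *Slc38a2* and *Slc1a5* were lower in Lcn10-KO. *Slc38a2* encodes SNAT2, a carrier of alanine, serine and glutamine that cells raise when amino acids are short (ENSMUSG00000022462.7, chr15:96687392-96699730, minus strand). *Slc38a2* had 5009, 4877 and 5236 normalized counts in Lcn10-KO replicates 1 to 3, against 6417, 5743 and 5683 in WT replicates 1 to 3. The genotypes did not overlap (log2 fold change −0.24 ± 0.05 SE, limma adjusted p = 0.0159). The log2 fold change was −0.18 without WT replicate 1. The call of *Slc38a2* was lost without Lcn10-KO replicate 1, 2 or 3 (adjusted p = 0.0599, 0.0979 and 0.0568). *Slc1a5* had 1115, 1099.7 and 1019 normalized counts in Lcn10-KO replicates 1 to 3, against 1305, 1266 and 1179 in WT replicates 1 to 3. *Slc1a5*, the glutamine carrier ASCT2, showed no overlap either (log2 fold change −0.21 ± 0.06 SE, limma adjusted p = 0.0342). The call of *Slc1a5* was lost without Lcn10-KO replicate 1, 2 or 3 (adjusted p = 0.0628, 0.109 and 0.144) or WT replicate 2 (adjusted p = 0.0508). *Slc1a5* kept its call without WT replicate 1 (log2 fold change −0.18, adjusted p = 0.0484). Its relative *Slc1a4* (ASCT1, a carrier of serine and alanine) had 155 ± 14.0 normalized counts in Lcn10-KO and 185 ± 24.6 in WT (SD, n = 3 each, log2 fold change −0.25 ± 0.12 SE, limma adjusted p = 0.219), with overlapping groups and a log2 fold change of −0.14 without WT replicate 1.

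*Slc38a6*, a family member whose substrates are less well described, was higher in Lcn10-KO. *Slc38a6* had 412, 456 and 459 normalized counts in Lcn10-KO replicates 1 to 3, against 339.9, 379.8 and 368 in WT replicates 1 to 3. Every Lcn10-KO library lay above every WT library (log2 fold change 0.29 ± 0.08 SE, limma adjusted p = 0.0334). Without WT replicate 1 its log2 fold change was 0.24. *Slc38a6* lost its call without Lcn10-KO replicate 2 or 3 (adjusted p = 0.149 and 0.131) or WT replicate 1 or 3 (adjusted p = 0.0551 and 0.0619). *Slc38a10*, next to *Slc38a2* in level per kilobase within the family, had 3488 ± 134 normalized counts in Lcn10-KO and 3539.9 ± 72.0 in WT (SD, n = 3 each, log2 fold change −0.02 ± 0.04 SE, limma adjusted p = 0.801). Its sign turned without Lcn10-KO replicate 1 (log2 fold change 0.01). In all, 1 of 6 tested Slc38a genes was higher, 1 lower and 4 did not pass, beside 9.84% of all tested genes called in either direction.

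*Slc6a9*, which encodes the glycine transporter GLYT1, had the lowest level per kilobase of the called genes. *Slc6a9* had 47.9, 34.7 and 43.7 normalized counts in Lcn10-KO replicates 1 to 3, against 87.1, 53.8 and 71.6 in WT replicates 1 to 3. The groups did not overlap, with Lcn10-KO at 59.4% of the WT mean (log2 fold change −0.72 ± 0.21 SE, limma adjusted p = 0.0497). This call lay at the edge of the threshold and was lost without Lcn10-KO replicate 1, 2 or 3 (adjusted p = 0.0779, 0.199 and 0.129) or WT replicate 1 or 3 (adjusted p = 0.116 and 0.115). It was also lost with a pseudocount of 0.5 or without the filter (adjusted p = 0.0501 and 0.0533). The log2 fold change was −0.56 without WT replicate 1. Its exons overlap those of *Ccdc24*, *B4galt2* and *Gm17114* on the opposite strand. Of these *B4galt2* was listed at 18.8 and *Ccdc24* at 2.11 normalized counts on average in Lcn10-KO, against 23.1 and 2.07 in WT.

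The carriers with the highest levels per kilobase were *Slc6a6*, *Slc3a2*, *Slc38a2*, *Slc43a2* and *Slc7a8*, in that order over all libraries. *Slc6a6* encodes the taurine transporter and had a mean of 4010.0 normalized counts per kilobase in Lcn10-KO and 3654 in WT. *Slc6a6* had 24202, 24638 and 25577 normalized counts in Lcn10-KO replicates 1 to 3, against 22014, 23858 and 21942 in WT replicates 1 to 3. Its Lcn10-KO libraries all lay above the WT libraries without passing the threshold (log2 fold change 0.13 ± 0.04 SE, limma adjusted p = 0.0738). The adjusted p was 0.0200 without WT replicate 2, the highest of the WT libraries here, and 0.0925 to 0.233 when any other library was left out. As a share of the 36 tested carriers per kilobase, *Slc6a6* took 26.3% ± 0.469 in Lcn10-KO and 22.3% ± 1.62 in WT (SD, n = 3 each) (two-sided exact permutation p = 0.1, the smallest possible). This share also rises as the sum of the 36 falls, which was 15261 ± 176 in Lcn10-KO and 16393 ± 854 in WT (SD, n = 3 each). *Slc43a2*, the LAT4 carrier of branched-chain amino acids and phenylalanine, had 8171 ± 238 normalized counts in Lcn10-KO and 7645 ± 475 in WT (SD, n = 3 each, log2 fold change 0.10 ± 0.05 SE, limma adjusted p = 0.224), with overlapping groups. Its adjusted p was 0.0422 without WT replicate 2, and 0.298 to 0.487 on leaving out any other library. *Slc6a8*, the creatine transporter, had 2851 ± 141 normalized counts in Lcn10-KO and 2792 ± 154 in WT (SD, n = 3 each, log2 fold change 0.03 ± 0.05 SE, limma adjusted p = 0.767), and this difference turned sign without Lcn10-KO replicate 3 or WT replicate 3 (−0.01 in each). *Slc43a3*, a carrier of purine nucleobases, had 521 ± 20.2 normalized counts in Lcn10-KO and 542 ± 28.2 in WT (SD, n = 3 each, log2 fold change −0.06 ± 0.07 SE, limma adjusted p = 0.640). Over the 6 omissions of a library its log2 fold change was −0.10 to −0.03.

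Of the genes listed by family as cationic amino acid carriers without a heavy chain, limma called 0 of 3 tested (*Slc7a1*, *Slc7a2* and *Slc7a4*), with *Slc7a1* at an unadjusted p under 0.05. The median log2 fold change of the 3 was −0.28, and −0.11 without WT replicate 1. *Slc7a1* had 1495, 1515 and 1519 normalized counts in Lcn10-KO replicates 1 to 3, against 2274, 1812 and 1685 in WT replicates 1 to 3. *Slc7a1* encodes CAT1, the general arginine and lysine carrier. Its genotypes did not overlap (log2 fold change −0.34 ± 0.10 SE, limma adjusted p = 0.0780), and the test was passed without WT replicate 1 (log2 fold change −0.21, adjusted p = 0.00898) and without WT replicate 3 (adjusted p = 0.0251). Leaving out any other library gave an adjusted p of 0.1003 to 0.207. *Slc7a2* had 285, 255 and 271 normalized counts in Lcn10-KO replicates 1 to 3, against 459, 269 and 286 in WT replicates 1 to 3. *Slc7a2*, named after its values were seen, encodes CAT2, an arginine carrier that activated macrophages raise, and its genotypes overlapped, with WT replicate 1 far above the rest (log2 fold change −0.28 ± 0.20 SE, limma adjusted p = 0.436).

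**Figure D3:**
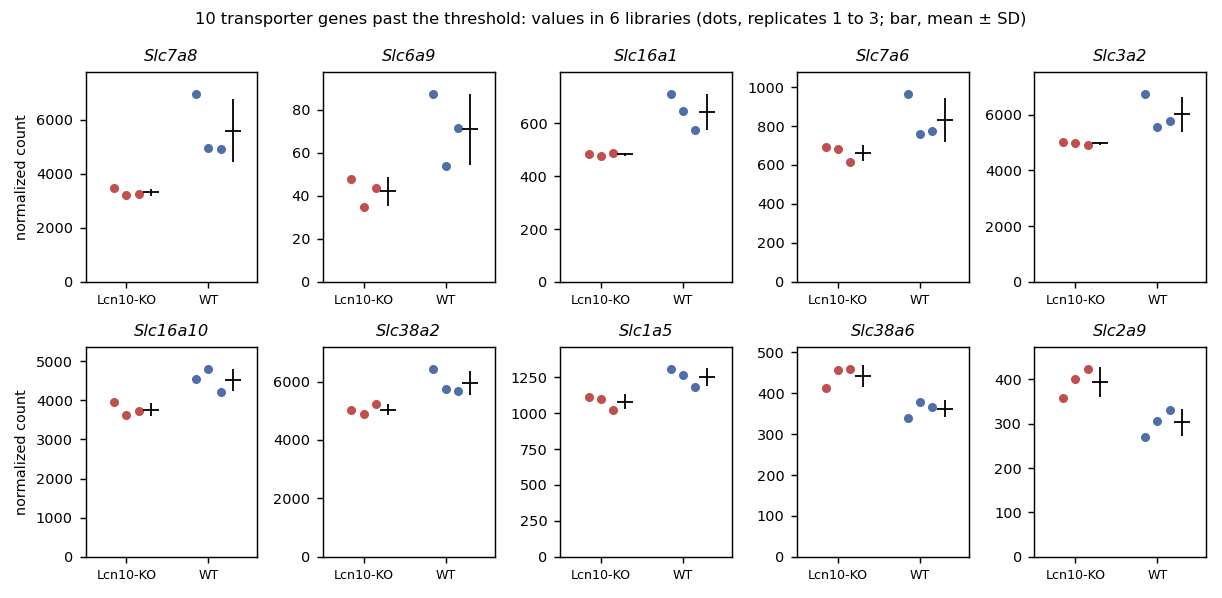
Normalized counts (vertical axes, each from 0) of the 10 called carriers in the 3 Lcn10-KO libraries (red) and the 3 WT libraries (blue), with mean ± SD in black. The red and blue points do not overlap in any panel, with red below blue in the first 8 panels and above it in those of *Slc38a6* and *Slc2a9*, and WT replicate 1 is the leftmost blue point.

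Among carriers of monocarboxylates and related acids, 2 of 6 tested Slc16a genes were lower (beside 5.14% of all tested genes) and 4 did not pass. *Slc16a1* encodes MCT1, which moves lactate and pyruvate with a proton and works with the chaperone basigin (ENSMUSG00000032902.1, chr3:104638668-104658462, plus strand). *Slc16a1* had 485, 476 and 488 normalized counts in Lcn10-KO replicates 1 to 3, against 710.1, 647 and 574 in WT replicates 1 to 3. Lcn10-KO lay at 75.0% of the WT mean with no overlap, the smallest p of all 36 carriers (log2 fold change −0.41 ± 0.08 SE, limma adjusted p = 0.00825). Leaving out WT replicate 1 gave a log2 fold change of −0.34. Its call was lost without Lcn10-KO replicate 2 or 3 (adjusted p = 0.0527 and 0.0533). *Slc16a10* had 3958, 3619.8 and 3714 normalized counts in Lcn10-KO replicates 1 to 3, against 4556, 4791 and 4223 in WT replicates 1 to 3. *Slc16a10* encodes TAT1 (MCT10), a carrier of aromatic amino acids and thyroid hormone, and had the highest level per kilobase in its family (log2 fold change −0.26 ± 0.05 SE, limma adjusted p = 0.0118). The log2 fold change of *Slc16a10* was also −0.26 without WT replicate 1, and its call was lost without Lcn10-KO replicate 2 or 3 (adjusted p = 0.0754 and 0.0692).

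*Slc16a3* encodes MCT4, the lactate exporter of glycolytic cells. *Slc16a3* had 812, 902 and 704 normalized counts in Lcn10-KO replicates 1 to 3, against 1289.7, 885 and 949 in WT replicates 1 to 3. The groups overlapped (log2 fold change −0.36 ± 0.17 SE, limma adjusted p = 0.257), and without WT replicate 1 the log2 fold change was −0.19. *Slc16a7* had 887, 909 and 944 normalized counts in Lcn10-KO replicates 1 to 3, against 697, 880.5 and 770.3 in WT replicates 1 to 3. *Slc16a7*, which encodes the high-affinity carrier MCT2, lay higher in every Lcn10-KO library than in any WT library without passing the threshold (log2 fold change 0.23 ± 0.08 SE, limma adjusted p = 0.0792). Its log2 fold change was 0.15 without WT replicate 1. The adjusted p was 0.00872 without WT replicate 2, and 0.141 to 0.239 when any other library was left out. Per kilobase, the sum of *Slc16a1*, *Slc16a3* and *Slc16a7* was 378 ± 19.9 in Lcn10-KO and 457 ± 56.2 in WT (SD, n = 3 each), and *Slc16a7* made up 22.0% ± 1.71 in Lcn10-KO and 15.9% ± 3.32 in WT (SD, n = 3 each) of it (two-sided exact permutation p = 0.1 for both, the smallest possible). This sum leaves out the other tested Slc16a genes, and it was 521, 430 and 419 in WT replicates 1 to 3. The share of *Slc16a7* also rises as the sum falls, so these are not separate results.

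Of the hexose carriers, 1 of 5 tested Slc2a genes was higher (beside 4.70% of all tested genes) and 4 did not pass. *Slc2a9* had 357, 401 and 422 normalized counts in Lcn10-KO replicates 1 to 3, against 269.7, 307 and 332 in WT replicates 1 to 3. *Slc2a9* encodes GLUT9, known chiefly as a urate transporter (ENSMUSG00000005107.13, chr5:38349273-38503143, minus strand). No WT library reached a Lcn10-KO library (log2 fold change 0.38 ± 0.09 SE, limma adjusted p = 0.0261). Its log2 fold change was 0.30 without WT replicate 1, and the call was lost without Lcn10-KO replicate 2 or 3 (adjusted p = 0.119 and 0.123). *Slc2a1* had 919.9, 875 and 779.9 normalized counts in Lcn10-KO replicates 1 to 3, against 1352, 972 and 1011 in WT replicates 1 to 3. *Slc2a1*, which encodes GLUT1, the main glucose carrier of activated macrophages, was lower in each Lcn10-KO library than in any WT library but did not pass (log2 fold change −0.36 ± 0.13 SE, limma adjusted p = 0.150). Without WT replicate 1 its log2 fold change was −0.21, which passed (adjusted p = 0.0477), while leaving out any other library gave an adjusted p of 0.0811 to 0.320. *Slc2a3*, the high-affinity glucose carrier GLUT3, had 316 ± 19.9 normalized counts in Lcn10-KO and 298 ± 25.6 in WT (SD, n = 3 each, log2 fold change 0.08 ± 0.09 SE, limma adjusted p = 0.596), and its log2 fold change was 0.03 to 0.15 over the 6 omissions of a library. Summed per kilobase, the 5 Slc2a genes had 756 ± 27.3 in Lcn10-KO and 792 ± 54.3 in WT (SD, n = 3 each) (two-sided exact permutation p = 0.4), and *Slc2a1* took 34.8% ± 2.67 in Lcn10-KO and 42.8% ± 5.02 in WT (SD, n = 3 each) of that sum (p = 0.1, the smallest possible in the same exact test). The share and the level of *Slc2a1* are not separate results.

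**Figure D4:**
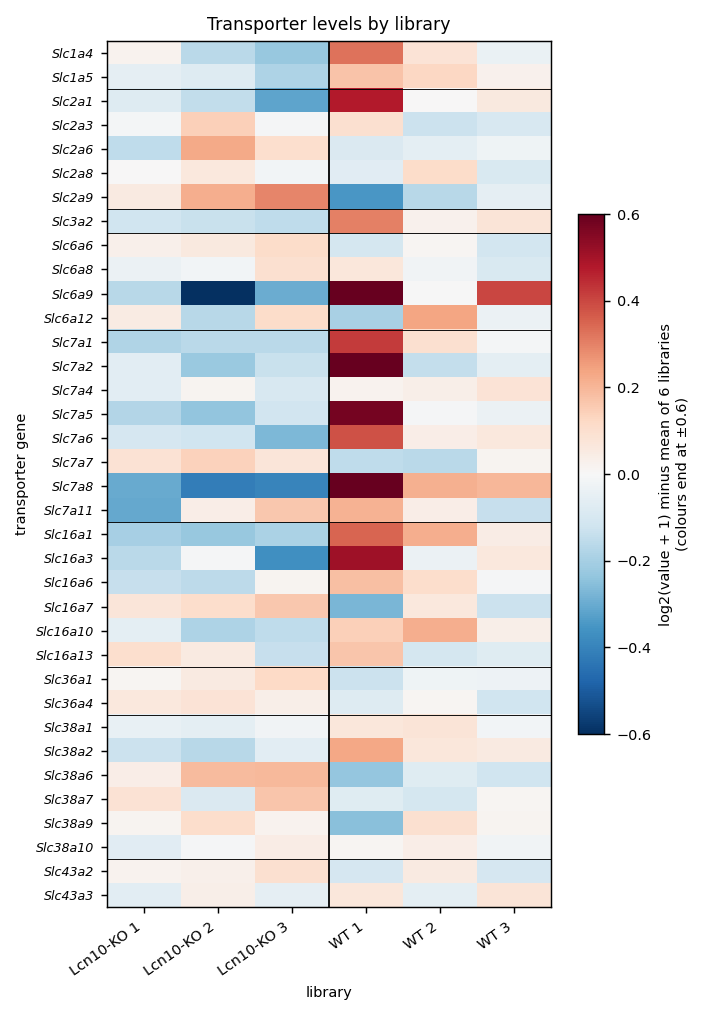
Log2(value + 1) of the 36 tested carriers (rows, by family) in each library (columns, Lcn10-KO left of WT), minus the mean of the gene over 6 libraries; red is higher and blue lower, and colours end at ±0.6. The darkest red cells are those of *Slc7a8*, *Slc6a9*, *Slc7a2* and *Slc7a5* in WT replicate 1, and the darkest blue cell is that of *Slc6a9* in Lcn10-KO replicate 2.

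A list of carriers known to be activated by ATF4 (*Slc1a4*, *Slc1a5*, *Slc3a2*, *Slc6a9*, *Slc7a1*, *Slc7a3*, *Slc7a5*, *Slc7a11* and *Slc38a2*) had 8 of 9 members tested, of which 4 were lower and the other 4 did not pass. Lower calls made up 5.14% of all tested genes. All 8 log2 fold changes were negative with all libraries, with a median of −0.26, while that of *Slc7a11* turned positive without WT replicate 1 or Lcn10-KO replicate 1. The median of the 8 was −0.18 without WT replicate 1. Limma called 0 of the 8 without Lcn10-KO replicate 1, 2 or 3, and 4, 3 and 4 without WT replicate 1, 2 and 3. *Slc7a3* did not pass the filter. Of the regulators of this response, 1 of 12 tested genes was called (8.33%), close to the 9.84% of all tested genes. Log2 fold changes of the 12 were positive in 7 and negative in 5, with a median of 0.02. The called gene was *Atf3*, a stress-induced transcription factor that was higher, with 4936 ± 207 normalized counts in Lcn10-KO and 4155 ± 315 in WT (SD, n = 3 each, log2 fold change 0.25 ± 0.06 SE, limma adjusted p = 0.0186). *Atf4* itself, which is regulated largely at translation and is named here after its values were seen, had 4824 ± 89.8 normalized counts in Lcn10-KO and 4906 ± 251 in WT (SD, n = 3 each, log2 fold change −0.02 ± 0.05 SE, limma adjusted p = 0.794). In the list of carriers known to respond to hypoxia, limma called 0 of 3 (*Slc2a1*, *Slc2a3* and *Slc16a3*), with *Slc2a1* at an unadjusted p under 0.05. The median log2 fold change of the 3 was −0.36, and −0.19 without WT replicate 1.

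Of 7 listed carriers of lysosomes and endosomes, 6 were tested (*Slc2a6*, *Slc2a8*, *Slc36a1*, *Slc36a4*, *Slc38a7* and *Slc38a9*) and limma called 0, with *Slc36a1* and *Slc36a4* at an unadjusted p under 0.05. All 6 log2 fold changes were positive with all libraries, from 0.03 to 0.12 with a median of 0.11, but that of *Slc38a9* was −0.01 without WT replicate 1 and that of *Slc2a8* 0.00 without WT replicate 3. *Slc36a4* had 1975, 2004 and 1939 normalized counts in Lcn10-KO replicates 1 to 3, against 1789, 1906 and 1742 in WT replicates 1 to 3. *Slc36a4* encodes PAT4, an amino acid carrier tied to mTORC1 signalling, and its groups did not overlap (log2 fold change 0.12 ± 0.05 SE, limma adjusted p = 0.118). Its adjusted p was 0.0457 without WT replicate 2, and 0.164 to 0.331 without any 1 of the others. *Slc36a1* had 1039.7, 1069 and 1118 normalized counts in Lcn10-KO replicates 1 to 3, against 943, 1014 and 1008 in WT replicates 1 to 3. *Slc36a1* encodes PAT1, a proton-coupled exporter of small amino acids from lysosomes, and likewise did not overlap (log2 fold change 0.12 ± 0.05 SE, limma adjusted p = 0.166). *Slc38a9*, a lysosomal carrier that senses arginine for mTORC1, had 752 ± 27.2 normalized counts in Lcn10-KO and 707 ± 86.0 in WT (SD, n = 3 each, log2 fold change 0.09 ± 0.08 SE, limma adjusted p = 0.509). *Slc38a7*, which exports glutamine and asparagine from lysosomes, had 1125 ± 99.2 normalized counts in Lcn10-KO and 1037 ± 43.7 in WT (SD, n = 3 each, log2 fold change 0.11 ± 0.07 SE, limma adjusted p = 0.299). *Slc2a6* (GLUT6) and *Slc2a8* (GLUT8), hexose carriers of inner membranes, had log2 fold changes of 0.11 ± 0.11 and 0.03 ± 0.07 SE, with overlapping groups. Over the 6 omissions of a library, the log2 fold change of *Slc38a7* was 0.06 to 0.18, that of *Slc38a9* −0.01 to 0.17 and that of *Slc2a6* 0.03 to 0.22.

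**Figure D5:**
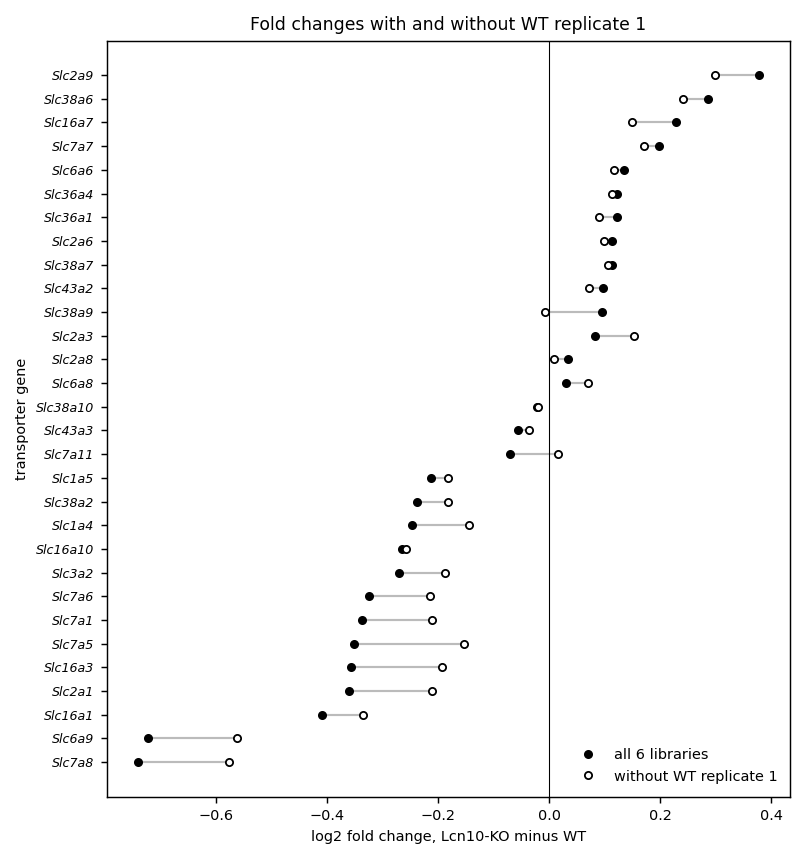
Log2 fold changes (horizontal axis, Lcn10-KO minus WT) of the 30 named carriers with all 6 libraries (filled points) and without WT replicate 1 (open points). The open points lie nearer to 0 for 28 of the 30 genes, for example at −0.58 for *Slc7a8* and −0.15 for *Slc7a5*, and those of *Slc38a9* and *Slc7a11* lie on the other side of 0.

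The promoters of 4 further members are shown because they bear on the amino acid response or hold a motif searched. Motifs were TGATGNAA, the core of the element that ATF4 binds with C/EBP partners, CACGTG, the E-box, and ACGTG, the core of the hypoxia response element, which lies within each CACGTG. Both strands were searched in RefSeq windows of 300 bases (GRCm38.p6), which 64 of the 89 members and 24 of the 36 tested members have. Of all 27025 genes with a window, 4.51% held TGATGNAA, 8.09% CACGTG and 21.8% ACGTG, and of all 32851 windows 3.97%, 7.15% and 19.6% did. Of the 24 tested members with a window, *Slc1a4*, *Slc7a7* and *Slc7a11* held TGATGNAA, *Slc16a1*, *Slc36a1* and *Slc38a7* held CACGTG, and 9 held ACGTG. Of the 9 called members with a window 0 held TGATGNAA, 1 CACGTG and 3 ACGTG. The window of *Slc7a11* (chr3:50443564-50443863, minus strand) has TGATGCAA starting 66 bases before the start and a second copy on the other strand. That of *Slc1a4* (chr11:20332664-20332963, minus strand) has 1 copy on the other strand that spans the start. That of *Slc16a1* (chr3:104638414-104638713, plus strand) has CACGTG starting 200 bases before the start and a further ACGTG after it. That of *Slc38a2* (chr15:96699679-96699978, minus strand) holds none, and its amino acid response element is known, in the human gene, from the first intron. Capitals mark the motifs.
Slc7a11: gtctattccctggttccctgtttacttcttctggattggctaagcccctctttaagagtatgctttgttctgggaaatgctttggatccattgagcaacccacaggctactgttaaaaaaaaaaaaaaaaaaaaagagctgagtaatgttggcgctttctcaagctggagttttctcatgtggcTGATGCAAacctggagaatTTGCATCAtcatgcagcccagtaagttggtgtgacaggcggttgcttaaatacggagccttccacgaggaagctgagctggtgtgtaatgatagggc
Slc1a4: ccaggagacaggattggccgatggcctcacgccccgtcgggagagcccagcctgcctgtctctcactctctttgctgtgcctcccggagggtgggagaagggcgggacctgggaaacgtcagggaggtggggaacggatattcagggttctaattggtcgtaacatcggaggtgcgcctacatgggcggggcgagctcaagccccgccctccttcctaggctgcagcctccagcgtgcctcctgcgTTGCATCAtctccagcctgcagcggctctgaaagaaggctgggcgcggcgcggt
Slc16a1: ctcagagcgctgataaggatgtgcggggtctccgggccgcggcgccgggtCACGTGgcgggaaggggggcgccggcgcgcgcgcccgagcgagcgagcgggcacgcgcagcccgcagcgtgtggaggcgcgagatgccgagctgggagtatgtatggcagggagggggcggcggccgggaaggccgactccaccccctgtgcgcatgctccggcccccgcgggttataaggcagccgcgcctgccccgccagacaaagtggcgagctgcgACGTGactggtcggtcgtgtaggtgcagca
Slc38a2: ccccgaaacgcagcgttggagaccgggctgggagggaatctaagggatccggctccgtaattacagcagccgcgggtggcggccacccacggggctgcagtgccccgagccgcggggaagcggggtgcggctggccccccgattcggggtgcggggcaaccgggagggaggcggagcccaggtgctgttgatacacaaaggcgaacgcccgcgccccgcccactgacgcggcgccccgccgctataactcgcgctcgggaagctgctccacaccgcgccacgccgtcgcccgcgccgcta
A match describes these letters only, and no match says only that they are not in the window.

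Of the partners and regulators of carriers, 15 were tested, of which limma called 3 (20.0%, beside 9.84% of all tested genes), 2 higher and 1 lower. *Nedd4l*, a ubiquitin ligase that removes carriers and channels from the surface, had 1313 ± 39.9 normalized counts in Lcn10-KO and 1023 ± 64.3 in WT (SD, n = 3 each, log2 fold change 0.36 ± 0.06 SE, limma adjusted p = 0.00353). *Sgk1*, a kinase that restrains *Nedd4l*, was lower, with 1132 ± 36.3 normalized counts in Lcn10-KO and 1311 ± 24.5 in WT (SD, n = 3 each, log2 fold change −0.21 ± 0.05 SE, limma adjusted p = 0.0192). *Emb*, which encodes embigin, a chaperone of monocarboxylate carriers, was higher, with 2277 ± 101 normalized counts in Lcn10-KO and 1974 ± 126 in WT (SD, n = 3 each, log2 fold change 0.21 ± 0.05 SE, limma adjusted p = 0.0338), and *Bsg*, the chaperone basigin, named after its values were seen, had 4613 ± 169 normalized counts in Lcn10-KO and 4649.7 ± 82.8 in WT (SD, n = 3 each, log2 fold change −0.01 ± 0.04 SE, limma adjusted p = 0.896). In a list of 8 other tested lysosomal carriers 3 were higher (37.5%, beside 4.70% of all tested genes) and 5 did not pass. *Mfsd12* is needed for cysteine import into lysosomes (log2 fold change 0.31 ± 0.05 SE, limma adjusted p = 0.00460). *Slc17a5* exports sialic acid (log2 fold change 0.29 ± 0.07 SE, limma adjusted p = 0.0351), and *Slc29a3* carries nucleosides (log2 fold change 0.21 ± 0.06 SE, limma adjusted p = 0.0391).

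Enzymes that use the carried amino acids had 6 of 19 tested genes called (31.6%, beside 9.84% of all tested genes), 5 lower and 1 higher. Their median log2 fold change was −0.17, which was −0.11 without WT replicate 1 and −0.27 without WT replicate 2. *Asns*, asparagine synthetase, was lower, with 1840.0 ± 50.9 normalized counts in Lcn10-KO and 2374 ± 226 in WT (SD, n = 3 each, log2 fold change −0.36 ± 0.06 SE, limma adjusted p = 0.00573). *Psph* of serine synthesis was lower (log2 fold change −0.32 ± 0.07 SE, limma adjusted p = 0.0143). *Aldh18a1* of proline synthesis was also lower (log2 fold change −0.34 ± 0.08 SE, limma adjusted p = 0.0238). The other 2 lower genes, named after their values were seen, were *Arg1*, arginase (log2 fold change −1.62 ± 0.39 SE, limma adjusted p = 0.0244), and *Gclc* of glutathione synthesis, for which the log2 fold change was −0.24. Levels of *Arg1* were low, with 14.9, 9.30 and 4.16 normalized counts in Lcn10-KO replicates 1 to 3, against 30.7, 25.1 and 28.9 in WT replicates 1 to 3. Its call was lost without Lcn10-KO replicate 2 or 3 or WT replicate 3. *Glul*, glutamine synthetase, was higher, with 4691 ± 33.7 normalized counts in Lcn10-KO and 3856 ± 128 in WT (SD, n = 3 each, log2 fold change 0.28 ± 0.04 SE, limma adjusted p = 0.00234). Enzymes that use sugars and monocarboxylates had 4 of 15 called (26.7%, beside the same 9.84%), 2 higher and 2 lower. *Pkm*, pyruvate kinase, was lower (log2 fold change −0.28 ± 0.06 SE, limma adjusted p = 0.0122). So was *Hk1*, a hexokinase (log2 fold change −0.23 ± 0.06 SE, limma adjusted p = 0.0391). *Hk3*, a myeloid hexokinase, was higher (log2 fold change 0.17 ± 0.04 SE, limma adjusted p = 0.0330). *Ldhb*, a lactate dehydrogenase subunit, was higher as well (log2 fold change 0.63 ± 0.16 SE, limma adjusted p = 0.0269). Of the 17 genes called in these lists and among the regulators of the amino acid response, all 17 were called without WT replicate 1 or without WT replicate 2, and 13 without WT replicate 3. Among the knockout libraries, leaving out replicate 1 kept 11 of these calls. Leaving out replicate 2 of Lcn10-KO kept 4, and so did leaving out replicate 3, in both cases *Nedd4l*, *Mfsd12*, *Asns* and *Glul*.

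Of the 53 carriers that were not tested, 18 were listed at 0 in all 6 libraries and 35 had a value above 0 in at least 1 library. The highest single value among them was 16.01 normalized counts, of the neutral amino acid carrier *Slc38a4* in Lcn10-KO replicate 2, while its other libraries reached at most 7.95. Of the 21 Slc6a genes, most of them neurotransmitter and osmolyte carriers, 4 were tested, and *Slc6a12*, the betaine carrier, had the lowest level per kilobase of any tested member, with 14.4 ± 1.52 normalized counts in Lcn10-KO and 14.5 ± 2.39 in WT (SD, n = 3 each, log2 fold change −0.00 ± 0.31 SE, limma adjusted p = 0.995). Among the untested, *Slc2a2*, the liver glucose carrier, was listed at 0, and *Slc2a4*, the insulin-responsive one, reached no more than 3.39. The neuronal and glial glutamate carriers *Slc1a1*, *Slc1a2* and *Slc1a3* reached no more than 2.28, and *Slc3a1*, the heavy chain of kidney and gut, no more than 1.69. Differences in these genes were not assessed in the main test. With no filter on low values 71 carriers were tested and 8 passed, all of them among the 10 called with the filter. The remaining 4 tested genes did not pass. *Slc16a6*, whose exons overlap those of *Amz2* and *Arsg*, had an unadjusted p under 0.05 (log2 fold change −0.19 ± 0.07 SE, limma adjusted p = 0.0926). *Slc38a1* encodes the glutamine carrier SNAT1 (log2 fold change −0.08 ± 0.04 SE, limma adjusted p = 0.241). The log2 fold changes of *Slc16a13* and *Slc7a4* were 0.01 and −0.09.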

How the data were processed

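RNA of 6 libraries (3 Lcn10-KO, 3 WT) was sequenced. Per the submitters' processing notes, bcl2fastq, STAR 2.6.1a, Salmon 0.11.2, DESeq2 and the mm10 genome were used. The deposited values are a signal per gene, read counts scaled by the authors. They are not whole reads, and reads could not be recovered from them, so a count test was not used. Here limma 3.58.1 (R 4.3.3, with mean-variance trend and robust variances) was fitted to log2(value + 1) of the 12091 genes that reached 10 in 3 or more libraries, with Benjamini-Hochberg adjustment over all of them and a threshold of 0.05. Fold changes on this scale understate changes of low genes. Genes were matched by symbol to GENCODE annotation (GRCm38) for coordinates and length, and promoters came from RefSeq (GRCm38.p6). On simulated data the test recovered 78% of genes changed 1.25-fold and 94% of those changed 2-fold. It also called 15 unchanged genes among 12132 tested. The simulation gave every gene the same dispersion (0.00109), taken from highly expressed genes, and had no library like WT replicate 1. Recovery in the real data can therefore be lower. Strand use in counting is not given in the sources used here. Members and lists were chosen with earlier results of these data known. Named are the called members, those at an unadjusted p under 0.05 with groups apart, the 2 most abundant of each family and the tested members of the ATF4, hypoxia and lysosome lists; in the other lists, up to 4 called genes by p. Alternatives were other scalings, filters, pseudocounts, no trend, a replicate block and leaving out each library. One marker list is not reported here.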

Additional observations from a re-analysis of the deposited data

How the results depend on the processing

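With limma without the mean-variance trend, 14 genes in all and 0 carriers passed (16 carriers at an unadjusted p under 0.05, a level not counted over all genes). With no filter on low values, 71 carriers were tested, 8 passed, and their median log2 fold change was 0.030, over genes that include those under the filter. Leaving out 1 library gave 175 to 1664 called genes, 0 to 12 called carriers, and a carrier median between −0.08 and −0.04. Quantile normalization, median ratio rescaling, a filter of 50 and a pseudocount of 10 left 10 called carriers, and a pseudocount of 0.5 left 9. Over 14 alternatives, the 30 named carriers gave 420 values, of which 356 kept direction and side of the threshold, 47 lost a call, 10 gained one and 7 turned sign, none of a called gene. Those that turned sign were *Slc38a10* (0.0064) and *Slc7a11* (0.067) without Lcn10-KO replicate 1, *Slc6a8* without Lcn10-KO replicate 3 (−0.010) and WT replicate 3 (−0.0086), *Slc38a9* (−0.0068) and *Slc7a11* (0.016) without WT replicate 1, and *Slc2a8* without WT replicate 3 (−0.0023), all in log2 fold change. Over the 6 omissions *Slc2a8* lay between −0.0023 and 0.097, *Slc38a9* between −0.0068 and 0.17, *Slc38a10* between −0.049 and 0.0064, *Slc6a8* between −0.010 and 0.071 and *Slc7a11* between −0.17 and 0.067. The cause was not tested. With the replicate number as a block, 1607 genes and 13 carriers passed, adding *Slc16a7*, *Slc2a1* and *Slc7a1*. Deviations of same-numbered libraries correlated at 0.04, 0.07 and 0.01, so the numbers were not taken to pair the samples, and WT replicate 3 did not correlate best with its own number. Count tests on recovered reads were not run, because only 78.5 to 87.2% of low values per library came out whole within 0.1 reads.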

Other observations

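Of 4 genes that share a family prefix but are no carriers by symbol, *Slc36a1os* and *Slc6a19os* were listed at 0 in all libraries. *Slc7a6os* had 520 ± 38.6 normalized counts in Lcn10-KO and 504.3 ± 34.5 in WT (SD, n = 3 each), with overlapping groups, beside the lower call of its neighbour by name *Slc7a6*. *Slc2a4rg-ps* had 91.4 ± 15.98 in Lcn10-KO and 89.0 ± 6.41 in WT (SD, n = 3 each), also overlapping.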
